A study of Macaca fascicularis with 6 samples.

Results

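Cells of intact articular cartilage (cyAC) were compared with cells of the fibrous tissue that fills an untreated chondral defect (cyFT) in the knee of the cynomolgus monkey. Both tissues came from wild type *Macaca fascicularis* of 3 to 4 years of age, and cyFT was collected 4 months after the defects had been made and left empty. No cells had been transplanted into either tissue. The cells were dissociated with Liberase, biotinylated, labelled with a hashtag for each tissue and pooled into 1 library, so that both tissues passed through the same amplification and sequencing. The sort for live cells is described for a range of tags that does not name the tag of the cyFT cells. The hashtag prefixes of the cell names selected 320 cells of cyAC and 320 cells of cyFT, which are 640 of the 1280 cells in their matrix and of the 7007 cells in the series. Each group of the study had 3 monkeys at a time point and sites of a monkey were combined for sequencing, but how many monkeys contributed to the cyAC and cyFT pools was not given in the sources used here. Each tissue was therefore 1 sample, every difference below is a difference between 2 pools of cells, and no test between the tissues was possible.

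Articular cartilage is built by chondrocytes, which lay down a network of type II collagen stiffened by types IX and XI and filled with aggrecan, a proteoglycan whose chondroitin sulfate chains hold water. Cells at its surface secrete lubricin, the product of *PRG4*. An empty chondral defect fills with repair tissue in which fibroblasts deposit type I collagen, a fibrillar collagen of tendon, bone and scar that intact cartilage largely lacks. Both tissues lie next to synovium and bone, whose lining cells, macrophages and osteoblasts may enter a dissected piece.

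The labels were first checked against the collagens that define the tissues. Levels are given as CPM, counts per 1000000, the reads of a gene summed over the 320 cells of a tissue and divided by all reads of those cells and scaled up, with an exact Poisson 95% interval that covers counting error only. *COL2A1*, the type II collagen chain, was at 47409.9 CPM in cyAC (47286 to 47534) and at 20777 CPM in cyFT (20692 to 20862). *COL1A1*, a chain of type I collagen, was at 1196 CPM in cyAC (1176 to 1216) and at 18192 CPM in cyFT (18113 to 18272). *COL1A2*, the other chain of that collagen, was at 1962 and 18279 CPM. The markers thus followed the labels, with *COL2A1* still present in 36.6% of cyFT cells and *COL1A1* present in 5.94% of cyAC cells. The lowest count of *COL1A1* in any cell that had one was 76 reads, since the authors' background correction sets lower values to 0, so that a cell without *COL1A1* reads is a cell below that level.

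Depth was close in the 2 tissues, with 11825548 reads in cyAC and 11087496 in cyFT, medians of 29699 and 27499.5 reads per cell and medians of 2284 and 2300 detected genes. The median share of mitochondrially encoded reads was 3.37% and 3.76%. No cell barcode was shared between the tissues. Cells of other types were few but unequal. At least 3 of the 14 measured pan-immune and macrophage markers were found in 3 cyAC cells and in 17 cyFT cells, which held 7.55% of all cyFT reads. All 9 measured macrophage markers were higher in cyFT, with a summed level of 22.7 CPM in cyAC and 805 CPM in cyFT. The 9 measured endothelial markers summed to 32.7 and 43.6 CPM, and the 8 measured mural markers to 56.6 and 114 CPM, although only 4 of the 8 were higher in cyFT and at least 3 of them were found in 6 cyAC cells and 2 cyFT cells. Fewer cells of a type and less RNA per cell cannot be told apart in such sums.

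Genes were compared by the log2 ratio of CPM + 1, cyAC over cyFT, and folds are given on that scale. Of 14020 genes, 3270 reached 50 CPM and had reads in 25% of cells in at least 1 tissue. Among these, 122 genes were at least 2-fold higher in cyAC (3.73% of those compared) and 231 at least 2-fold higher in cyFT (7.06%). These shares are the background for every count of list members over all cells below. The median over all 3270 genes was a log2 ratio of -0.11. Scaling by TMM factors, which align the bulk of genes, moved ratios toward cyAC by up to 0.18, somewhat less for genes of low level because of the added 1, and turned the split into 183 and 164 genes, so that the excess of genes on the cyFT side depends on the scaling. The plot of both tissues' levels shows that most genes lay within 2-fold and that the type I collagen chains stood farthest from the diagonal among the 65 genes at or above 2000 CPM in either tissue, a limit set after the values were seen.

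**Figure D1:**
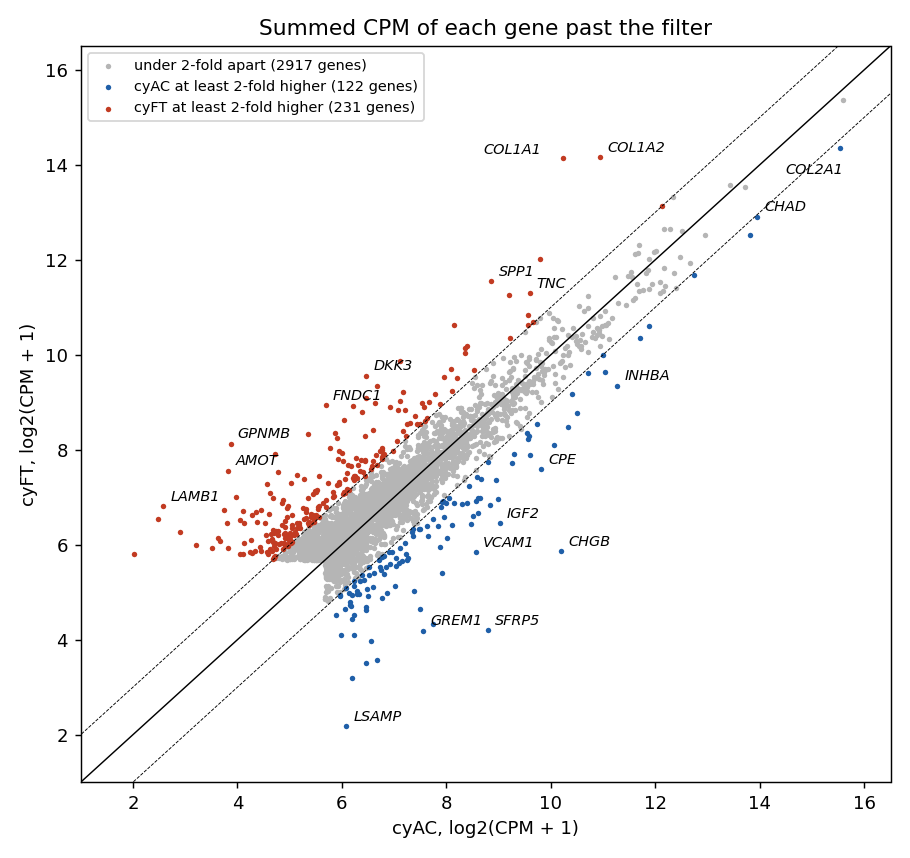
Level of each of the 3270 compared genes in cyAC (x axis) and cyFT (y axis), both as log2(CPM + 1). The solid line marks equal levels and the dashed lines a 2-fold difference, blue points are the 122 genes higher in cyAC, red points the 231 genes higher in cyFT, and *COL1A1* and *COL1A2* lie far above the diagonal while *COL2A1* lies just below its lower dashed line.

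On the cyFT side, the 15 genes with the largest ratios included genes of the matrix and of mesenchymal cells. *COL1A1* was 15.2-fold and *COL1A2* 9.31-fold higher in cyFT. *LAMB1*, a laminin beta chain of basement membranes, was at 4.99 CPM in cyAC and 111 CPM in cyFT, with reads in 4.38% and 37.8% of cells. *FNDC1*, a gene of secreted or membrane proteins with fibronectin type III domains, was at 50.6 and 489 CPM. *DKK3*, a secreted member of the Dickkopf family, was at 87.6 CPM in 7.5% of cyAC cells and at 752 CPM in 63.4% of cyFT cells. *PDGFRB*, a receptor for platelet-derived growth factor on mesenchymal and perivascular cells, was at 12.3 and 105 CPM. These genes lay in the same cells as type I collagen, since 94.8% of the cyFT reads of *LAMB1*, 100% of those of *FNDC1*, 92.9% of those of *DKK3* and 97.4% of those of *PDGFRB* fell in the 203 cyFT cells with *COL1A1* reads, which held 49.4% of all cyFT reads.

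*AMOT*, which encodes the scaffold protein angiomotin that binds the coactivator YAP, was spread differently. It was at 13.2 CPM in cyAC and at 187 CPM in cyFT (13.3-fold), with reads in 25.6% of cyAC cells and 86.9% of cyFT cells, and 55.8% of its cyFT reads lay in *COL1A1* cells, near the share of all reads in those cells. Immune-marker cells of cyFT with neither collagen held it too, in 14 of 15 cells at 129 CPM. Thinning each cell to 12191 reads left its shares at 10.7% and 76%. *PCSK6*, a proprotein convertase of the secretory pathway, was at 14.8 and 127 CPM with 43.2% of its cyFT reads in *COL1A1* cells. *CLEC3B*, the gene of tetranectin, was at 39.6 and 322 CPM, *IGSF10* at 6.43 and 75.6 CPM, *PAMR1* at 3.04 and 54.8 CPM and *MAMDC2* at 8.2 and 62.9 CPM.

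The gene with the largest ratio on this side was *GPNMB*, a transmembrane glycoprotein gene prominent in macrophages and osteoclasts, at 13.6 CPM in cyAC and 279 CPM in cyFT. In cyFT, 40.4% of its reads fell in the 17 cells with immune markers and 58% in *COL1A1* cells, and its log2 ratio was -4.26 with and -3.66 without immune-marker cells. *CPM*, which encodes the membrane enzyme carboxypeptidase M, had 70.1% of its cyFT reads in the immune-marker cells and a log2 ratio of -3.20 with and -1.70 without them. *CYRIA*, a gene of an actin regulator that binds RAC, had 17.1% there.

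**Figure D2:**
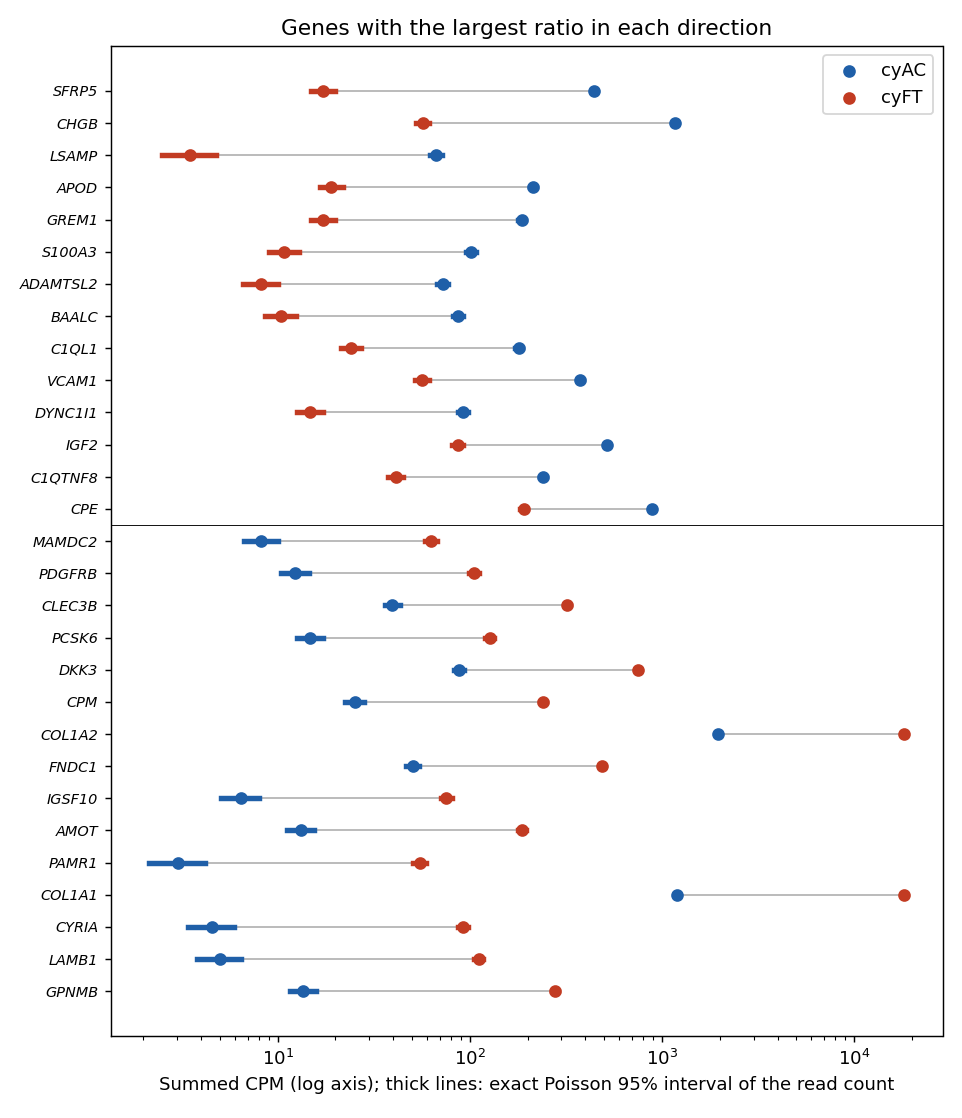
Summed CPM in cyAC (blue) and cyFT (red) on a log axis for genes with the largest ratio in each direction, 14 higher in cyAC above the line and 15 higher in cyFT below it. Thick bars are exact Poisson 95% intervals of the read counts, hidden by the point where the count is large, and the intervals of the 2 tissues do not overlap for any of the 29 genes.

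On the cyAC side, the leading genes included secreted antagonists of growth factors. *SFRP5*, a secreted antagonist of WNT ligands, was at 444 CPM in cyAC (432 to 456) and at 17.3 CPM in cyFT (15 to 19.9), which is 24.3-fold. Its reads were found in 47.8% of cyAC cells and 26.2% of cyFT cells, so that the level differed more than the share of cells. *GREM1*, an antagonist of bone morphogenetic proteins, was at 187 and 17.2 CPM, in 55.6% and 17.2% of cells. *IGF2*, an insulin-like growth factor, was at 518 CPM in cyAC and 86.7 CPM in cyFT, in 77.8% and 36.6% of cells. *CPE*, carboxypeptidase E, was at 894 and 191 CPM, in 91.9% and 46.9% of cells. These 4 genes were thus spread over many cyAC cells, the 5 highest cells holding between 9.35% and 23% of their reads.

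*LSAMP*, an adhesion molecule of the immunoglobulin superfamily, was at 66.6 CPM in 30.9% of cyAC cells and at 3.52 CPM in 2.81% of cyFT cells. *APOD*, a lipid-binding lipocalin, was at 214 and 19 CPM. *C1QL1* and *C1QTNF8*, secreted proteins with a C1q domain, were at 180.3 and 239.7 CPM in cyAC and at 24.1 and 41.2 CPM in cyFT. *ADAMTSL2*, a secreted glycoprotein that associates with microfibrils, was at 72.5 and 8.21 CPM. *S100A3*, *BAALC* and *DYNC1I1* were also among the leading genes, with folds of 8.67, 7.72 and 5.93.

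*CHGB*, which encodes chromogranin B of secretory granules, was an exception among them. Its level was 1173 CPM in cyAC and 57 CPM in cyFT, but 5 cyAC cells held 93.3% of its cyAC reads, and it was detected in 60.6% and 56.9% of cells. Without the 5 highest cells of each tissue its log2 ratio was 1.09, against 4.34 with them. Of its cyAC reads, 96.6% lay in the 24 cells with neither *COL2A1* nor *COL1A1* reads and without immune markers.

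The structural collagens divided by tissue. All 6 compared genes of the cartilage collagens were higher in cyAC, with a median log2 ratio of 0.89 against -0.11 for all genes, and 2 of them passed 2-fold. These were *COL2A1* (2.28-fold) and *COL9A1*, a chain of the type IX collagen that decorates type II fibrils, at 6879 and 3269.6 CPM. *COL11A1* and *COL11A2*, chains of the type XI collagen at the core of those fibrils, had log2 ratios of 0.98 and 0.80, *COL9A2* of 0.79 and *COL27A1* of 0.44. Unlike *COL2A1*, the other 5 genes still had reads in most cyFT cells, from 59.4% for *COL27A1* upward. *COL9A2* was detected in 98.4% of cyFT cells and *COL11A1* in 94.4%, but the median cyFT cell was at 927 CPM of *COL9A2* against 4337 CPM in cyAC. Reads of *COL9A2* were also found in 14 of the 15 cyFT cells with immune markers and neither collagen, at 182 CPM.

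Of 9 compared fibrous and pericellular collagens, 8 had a negative log2 ratio, with a median of -1.04. Of the 9, 5 were at least 2-fold higher in cyFT and none in cyAC, against 7.06% and 3.73% of all compared genes. With TMM factors 4 were, *COL12A1* being at -0.86, and the median was -0.86. After the type I chains came *COL6A3*, a chain of the pericellular type VI collagen, at 143 and 590.5 CPM, and *COL5A2*, a chain of the type V collagen of fibrous fibrils, at 337 and 1168 CPM. *COL12A1*, of a collagen on the surface of fibrils, was at 108 and 223 CPM, and the related *COL14A1* at 726 and 1433 CPM, under 2-fold. Of 5 compared basement membrane genes, *LAMB1* and *COL4A2* were higher in cyFT (37.4 and 109 CPM for the type IV collagen chain, with 58.4% of the cyAC reads of *COL4A2* in 3 cells without either *COL2A1* or *COL1A1* and a log2 ratio of -1.52 with and -2.98 without the 5 highest cells of each tissue), while *LAMA4*, *HSPG2* (perlecan) and *LAMB2* were within 2-fold, at log2 ratios of -0.85, -0.24 and 0.23.

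The proteoglycans lay on both sides. *ACAN*, the gene of aggrecan, was at 5215 CPM in cyAC and 3366 CPM in cyFT, in 99.4% and 96.6% of cells. *VCAN*, the gene of versican, the large proteoglycan of loose connective tissue, was at 57.1 and 325 CPM. The hyaluronan receptor gene *CD44* was at 138 and 519 CPM, with 35.4% of its cyFT reads in immune-marker cells, whereas the hyaluronan synthase gene *HAS2* was at 281 and 116 CPM, higher in cyAC. None of 14 compared genes of chondroitin sulfate synthesis passed 2-fold (log2 ratios from -0.66 for *CSGALNACT2* to 0.63 for *CHPF*). Among 9 small leucine-rich proteoglycans the median log2 ratio was 0.00 and 1 gene passed 2-fold, *ASPN* (asporin), at 269.8 and 832 CPM. Decorin (*DCN*, 6515 and 3889.7 CPM), fibromodulin (*FMOD*, 7889 and 5876 CPM) and *PRELP* (1675 and 1067 CPM) were higher in cyAC by less than 2-fold, and lumican (*LUM*, 1002 and 1297 CPM) was lower by less than 2-fold.

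Of 13 compared cartilage glycoproteins, 4 were at least 2-fold higher in cyAC and 2 in cyFT, against 3.73% and 7.06% of all compared genes. Their median log2 ratio was 0.42. *MATN3*, a matrilin of cartilage, was at 508 CPM in 71.2% of cyAC cells and at 123 CPM in 32.5% of cyFT cells. *SNORC*, a chondrocyte membrane proteoglycan, was at 1673 and 782 CPM. *CHAD* (chondroadherin, a collagen-binding protein) was at 15717 and 7669 CPM and was found in 99.69% of cyFT cells, with cell medians of 15050.2 and 904 CPM. All 15 cyFT cells with immune markers and neither collagen also held *CHAD* reads, at 393 CPM, so that presence in a cell was not read as expression. *CILP2* was at 119 and 56.7 CPM. *CLEC3B* and *CRTAC1* (cartilage acidic protein, 327 and 1134 CPM) were the 2 genes higher in cyFT.

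Of 9 compared matricellular genes, which encode matrix proteins that act on cells, 5 were higher in cyFT and 2 in cyAC, against 7.06% and 3.73% of all compared genes, with a median log2 ratio of -1.31. *TNC*, the gene of tenascin C, was at 771 and 2521 CPM, *TGFBI* at 326 and 1043 CPM, *THBS2* at 68.7 and 203 CPM and *SPON2* at 19.4 and 103 CPM. *THBS1*, another thrombospondin, ran the other way, at 2106 CPM in cyAC and 799.5 CPM in cyFT, and *SPARC*, a collagen-binding glycoprotein, was within 2-fold at 49048 and 42327 CPM. *ELN*, the gene of elastin, was at 59.4 and 301 CPM and the microfibril gene *MFAP5* at 12.9 and 87 CPM, while *FBLN1* (95.6 and 33.4 CPM) and *FBLN7* (1355 and 579 CPM), fibulins of the extracellular matrix, were higher in cyAC. Over the 10 compared elastic and microfibril genes the median log2 ratio was -0.31. Of them, 2 genes passed 2-fold in each direction, against 3.73% of all compared genes in cyAC and 7.06% in cyFT.

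Genes of collagen processing also went both ways. *LOXL3* and *LOX*, lysyl oxidases that start the crosslinking of collagen and elastin, were at 779.6 and 105 CPM in cyAC and at 236 and 45 CPM in cyFT. *LOXL1* of the same family was higher in cyFT, at 31.1 and 75.4 CPM, as was the prolyl 3-hydroxylase gene *P3H2*, at 24.6 and 126 CPM. Of 10 compared proteases, 4 were at least 2-fold higher in cyFT and 2 in cyAC, against 7.06% and 3.73% of all compared genes. Their median log2 ratio was -0.50. Those higher in cyFT were *CTSB* (cathepsin B), *MMP14*, *MMP2* and *CTSK* (cathepsin K). *MMP14*, a membrane-bound collagenase that activates the gelatinase encoded by *MMP2*, was at 134 and 453 CPM, and *MMP2* at 67.4 and 181 CPM. *CTSB* was at 87.7 and 547 CPM with 69.5% of its cyFT reads in immune-marker cells, and its log2 ratio was -2.63 with and -1.03 without those cells. *MMP3* (stromelysin) was among the 2 proteases higher in cyAC, at 1441 and 439 CPM, with 38.9% of its cyAC reads in 5 cells. Of 11 protease inhibitors, 3 were at least 2-fold higher in cyFT, against 7.06% of all compared genes, and none in cyAC. Their median log2 ratio of -0.12 was near the -0.11 of all genes. The 3 were *ITIH5*, *SERPINF1* and *SERPINA1*, at folds of 4.3, 4.15 and 2.09, while *TIMP1* and *TIMP2* had log2 ratios of 0.53 and -0.97.

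**Figure D3:**
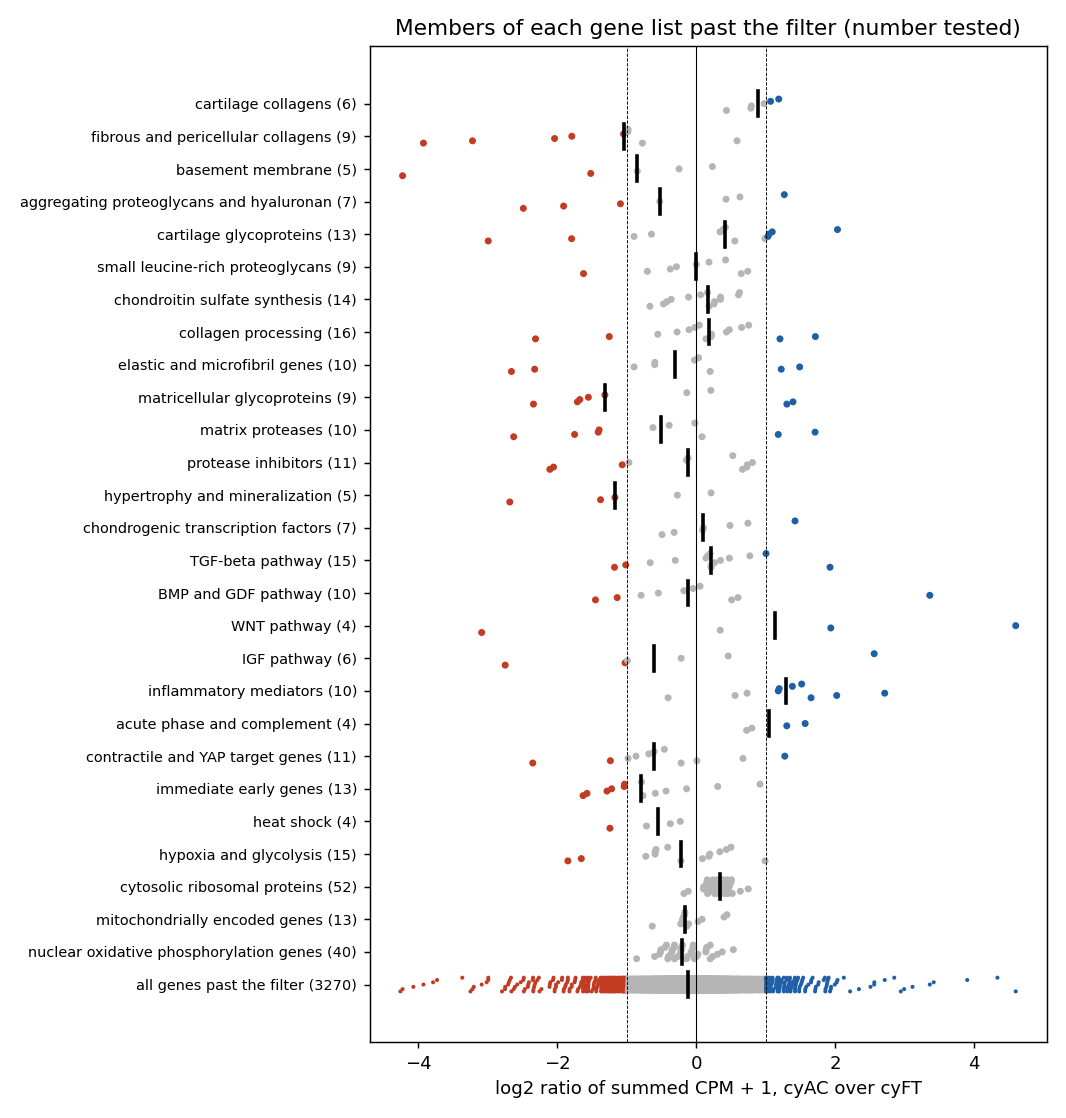
Log2 ratio of CPM + 1, cyAC over cyFT, of the compared members of 27 gene lists and of all 3270 compared genes, with the number of genes in parentheses. Each point is a gene, black bars are medians and dashed lines mark 2-fold. The fibrous collagens, the matricellular genes and the hypertrophy and mineralization genes have medians beyond -1. With TMM factors those of the fibrous collagens and of hypertrophy and mineralization are -0.86 and -0.99. The inflammatory mediators, the WNT pathway (4 genes) and acute phase and complement (4 genes) have medians beyond 1.

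Growth factor pathways held members on both sides. *INHBA*, the activin A subunit of the TGF-beta family, was at 2475 CPM in cyAC and 649 CPM in cyFT, with reads in 48.8% and 38.4% of cells. *TGFB2* was at 67 and 32.8 CPM, *TGFB1* at 336 and 241 CPM, and *TGFB3* was higher in cyFT at 42.9 and 98 CPM. Over the 15 compared genes of this pathway 2 passed 2-fold in each direction, against 3.73% of all compared genes in cyAC and 7.06% in cyFT. The pair higher in cyFT (*TGFB3* and *SMAD4*) came within 2-fold with TMM factors. The median log2 ratio of the pathway was 0.22. For bone morphogenetic proteins, the ligand gene *BMP2* was within 2-fold (236 and 165 CPM), the antagonist *GREM1* was higher in cyAC, and *ID1* and *ID3*, which these ligands induce in many cells, were higher in cyFT at 184 and 504 CPM and at 83.5 and 185 CPM. *BMP6* had 13.4 and 60.8 CPM but too few cells with reads to be compared.

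Of 16 measured WNT pathway genes, 4 could be compared and all 4 encode secreted antagonists or related proteins. *SFRP5* and *WIF1* (387 and 100.2 CPM) were higher in cyAC, *DKK3* was higher in cyFT, and *FRZB* was within 2-fold at 3297 and 2592 CPM. For *FRZB* the sums were closer than the cells, since the median cell was at 2475 CPM in cyAC and 376 CPM in cyFT. Among 6 genes of the insulin-like growth factor pathway, *IGF2* was higher in cyAC, whereas *IGFBP4* (26.5 and 184 CPM) and *IGFBP5* (191 and 388 CPM), which bind the ligand, were higher in cyFT. For *IGFBP5* the log2 ratio was -1.02, -0.84 with TMM factors and -2.33 without the 5 highest cells of each tissue, and 49.5% of its cyAC reads lay in the 24 cells with neither *COL2A1* nor *COL1A1* and without immune markers. For *IGFBP4*, 24.8% of the cyFT reads lay in immune-marker cells.

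Inflammatory mediators were mostly higher in cyAC. Of 10 compared genes, 7 were at least 2-fold higher in cyAC and none in cyFT, against 3.73% and 7.06% of all compared genes, with a median log2 ratio of 1.29 against -0.11 for all genes, and 1.57 without immune-marker cells. *VCAM1*, an adhesion molecule induced by cytokines, was at 377 CPM in cyAC (366 to 388) and 56.6 CPM in cyFT (52.2 to 61.2). Its 5 highest cyAC cells held 49.5% of its reads, and its log2 ratio was 2.72 with and 2.28 without the 5 highest cells of each tissue. *NFKBIZ*, a nuclear regulator of NF-kB target genes, was at 336 and 117 CPM, and the chitinase-like genes *CHI3L1* and *CHI3L2* were at 380.4 and 353 CPM in cyAC and at 120.0 and 86 CPM in cyFT. The 24 cyAC cells with neither *COL2A1* nor *COL1A1* and without immune markers held 61.7% of the cyAC reads of *CHI3L1* and 24.2% of those of *CHI3L2*. *NOS2*, the inducible nitric oxide synthase, had 257 and 13.5 CPM but was found in only 13.4% of cyAC cells and 2.81% of cyFT cells, under the limit for comparison. Acute phase and complement genes showed the same side, with *CP* (ceruloplasmin) at 150.1 and 49.9 CPM and *CLU* (clusterin) at 14457 and 5846 CPM, 2 of 4 compared genes past 2-fold.

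Macrophage and pan-immune genes lay on the cyFT side, with all 14 measured markers higher there. The other immune lists did not all follow. The 7 measured T or NK cell markers summed to 20.0 CPM in cyAC and 94.0 CPM in cyFT with 4 of them higher in cyFT. At least 3 of the 7 were found in 4 cyAC cells and 2 cyFT cells. The 3 mast cell markers summed to 15.1 and 14.3 CPM, and the 2 neutrophil markers to 46.1 CPM in cyAC and 0.722 CPM in cyFT. *LYZ* (lysozyme) had 2.62 CPM in cyAC and 269.8 CPM in cyFT. *LYZ* and *C1QC* are on the marker list that chose the 17 cyFT immune-marker cells, so the share of their reads in those cells follows from that choice and is not given. *C1QC*, a chain of complement C1q made by macrophages, had 0 reads in cyAC and 153 CPM in cyFT, at least 603-fold higher as a plain ratio of CPM, without the added 1, when the limit of 3 reads is put in the place of 0, with reads in 5% of cyFT cells and in 0 of 320 cyAC cells, which by the same limit of 3 counts allows a share of up to 0.938%. *CXCL8*, a chemokine gene of the inflammatory list that could not be compared, had 19.4 and 384 CPM, and 99.1% of its cyFT reads were in immune-marker cells, opposite in direction to the 7 genes above. *APOE* (apolipoprotein E) was higher in cyFT by the sums, at 168 and 417 CPM, with 84.7% of its cyFT reads in those cells, and without immune-marker cells its log2 ratio of -1.30 became 1.20. Of the antigen presentation genes, *B2M* was at 1000.0 and 1890.0 CPM with 33.3% of its cyFT reads in immune-marker cells.

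Among transcription factors of chondrocytes, *SOX9*, a master regulator of chondrocyte identity, was at 395 CPM in cyAC and 555 CPM in cyFT, in 69.4% and 72.5% of cells, and *SOX5* at 158 and 147 CPM. Of 7 compared genes, *NFIB* passed 2-fold, at 88.6 and 32.4 CPM. *PRRX1* and *PRRX2*, homeobox genes of limb mesenchyme, were both higher in cyFT, at 71.4 and 73.4 CPM against 29.8 and 33.9 CPM. The log2 ratio of *PRRX2* was -1.09, -0.91 with TMM factors and 0.61 in the cells with *COL2A1* and no *COL1A1* reads. Among 13 immediate early genes, whose transcription responds within minutes to growth factors, stress or dissociation, 6 were higher in cyFT and none in cyAC, against 7.06% and 3.73% of all compared genes, with a median log2 ratio of -0.79 against -0.11 for all genes. With TMM factors 4 were higher in cyFT and 1 in cyAC, *KLF4* and *KLF6* falling to -0.85, and the median was -0.60. *NR4A1* was at 147 and 455 CPM, *JUN* at 247 and 736 CPM and *FOS* at 754 and 1836 CPM. *TSC22D3*, a target of glucocorticoids, was at 82.4 and 446 CPM, *SGK1* at 71.1 and 201 CPM, and the clock genes *PER1* and *NR1D1* were higher in cyFT at folds of 2.5 and 2.18.

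Of 11 compared contractile and YAP target genes, 8 were within 2-fold, 2 were at least 2-fold higher in cyFT and 1 in cyAC. The shares among all compared genes were 7.06% and 3.73%. Those higher in cyFT were *TAGLN* (97.9 and 504 CPM) and *FLNA* (99.95 and 236 CPM), and *CCN1*, a target of YAP (3755 and 1548 CPM), was higher in cyAC. *ACTA2*, the smooth muscle actin of myofibroblasts, was at 9.13 and 52.6 CPM and found in 7.19% and 11.9% of cells, too few to be compared. Of 15 compared hypoxia and glycolysis genes, 2 were at least 2-fold higher in cyFT, against 7.06% of all compared genes, and none in cyAC. Their median log2 ratio was -0.22. The 2 were *CA12* (3.59-fold) and the glucose transporter gene *SLC2A3* (3.14-fold), while *BNIP3* had a log2 ratio of 0.99. Of 3 compared cell cycle genes, 1 was at least 2-fold higher in cyFT, the replication clamp gene *PCNA* at 38.9 and 102 CPM, while *HMGB2* was at 92.8 and 127 CPM. The proliferation marker gene *MKI67* could not be compared, at 0.507 CPM in cyAC and 18.9 CPM in cyFT, in 1.25% and 3.12% of cells. None of the 52 cytosolic ribosomal protein genes passed 2-fold, although 50 of them had a positive log2 ratio (median 0.34), and reads of near-identical copies could be split among these genes. None of 13 mitochondrially encoded genes and none of 40 nuclear genes of oxidative phosphorylation passed it either.

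The tissue sums mix a difference in which cells were present with a difference within cells. Cells were therefore grouped by their reads of the 2 collagens. *COL2A1* alone was found in 276 cyAC cells (86.3%, exact binomial 95% interval 82.0 to 89.8) and in 84 cyFT cells (26.3%, 21.5 to 31.4), *COL1A1* alone in 16 and 170 cells, both in 3 and 33 cells, and neither in 25 and 33 cells. The *COL2A1*-alone cells of cyFT were deeper, with a median of 47802.5 reads against 30768.5 in cyAC. Within that class, which its reads define, *COL2A1* was at 53983 and 45782 CPM. *CHAD* was at 17736 and 16163 CPM, nearer between the tissues than in the sums over all cells. *ACAN* was at 5718 and 3899 CPM, apart by about as much as over all cells.

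**Figure D4:**
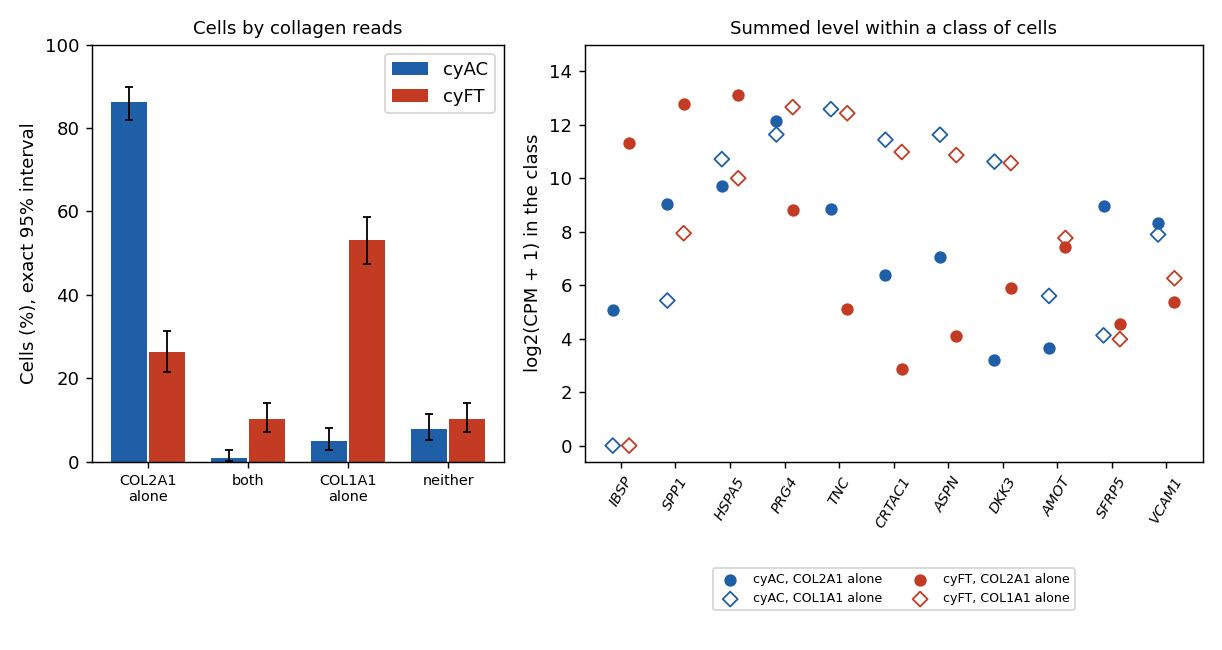
Left, share of the 320 cells of each tissue with reads of *COL2A1* alone, both collagens, *COL1A1* alone or neither, with exact binomial 95% intervals that cover counting error only. Right, log2(CPM + 1) of 11 genes summed over the *COL2A1*-alone cells (filled circles) and the *COL1A1*-alone cells (open diamonds) of cyAC (blue) and cyFT (red), where *TNC*, *CRTAC1* and *ASPN* are within 2-fold in the *COL1A1*-alone cells and are far lower in the *COL2A1*-alone cells of cyFT than of cyAC.

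In the *COL1A1*-alone cells, of which cyAC had only 16, most of all compared genes were within 2-fold. That most genes that had separated the sums were also within it is therefore not particular to them. Among all 3270 genes, 189 were at least 2-fold higher in cyAC in this class (5.78%) and 577 in cyFT (17.6%). Of the 231 genes higher in cyFT over all cells, 62 (26.8%) were at least 2-fold higher in cyFT in this class, 167 were within 2-fold and 2 were at least 2-fold higher in cyAC, and 52 had the opposite sign. Of the 122 genes higher in cyAC, 38 (31.1%) were at least 2-fold higher in cyAC, 62 were within 2-fold and 22 were at least 2-fold higher in cyFT (18.0%, near the share among all genes), and 46 had the opposite sign. *DKK3* was at 1576 CPM in cyAC and 1521 CPM in cyFT, *FNDC1* at 1063 and 1228 CPM, *TNC* at 6146 and 5532 CPM and *COL1A2* at 28077 and 33755 CPM. *FNDC1* reads were found in 110 cyFT cells and 11 cyAC cells, every one of which also held *COL1A1*. Other leading genes of cyFT were far apart in this class, among them *LAMB1* (34.7 and 255 CPM), *PAMR1* (3.65 and 109 CPM), *PCSK6* (9.13 and 135 CPM) and *AMOT* (47.5 and 217 CPM). *CLU* and *ELN* were also apart, at 24339 and 6805 CPM and at 109.6 and 372 CPM.

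Among *COL2A1*-alone cells, 3146 genes passed the same filter, of which 164 were at least 2-fold higher in cyAC (5.21%) and 198 in cyFT (6.29%). Of the 122 genes higher in cyAC over all cells, 61 kept at least 2-fold in this class and 1 had the opposite sign. Of the 231 genes higher in cyFT, 78 kept at least 2-fold and 60 had the opposite sign. The 122 and 231 genes were those past the filter over all cells, so some had low levels in this class. The 61 genes included *SFRP5* (501 and 22.5 CPM), *GREM1* (211 and 26.6 CPM), *LSAMP* (73.7 and 7.59 CPM) and *VCAM1* (319 and 40.4 CPM), and *AMOT* kept its difference in the cyFT direction (11.4 and 169 CPM). *TNC* was on the other side, at 463 CPM in the *COL2A1*-alone cells of cyAC and 33.9 CPM in those of cyFT, as were *ASPN* (133 and 16.1 CPM), *CRTAC1* (81.5 and 6.25 CPM) and *COL5A2* (log2 ratio 2.72). *IGFBP7* (628 and 68.5 CPM) and *ANK2* (60.4 and 6.03 CPM), within 2-fold over all cells, were also far higher in the *COL2A1*-alone cells of cyAC.

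**Figure D5:**
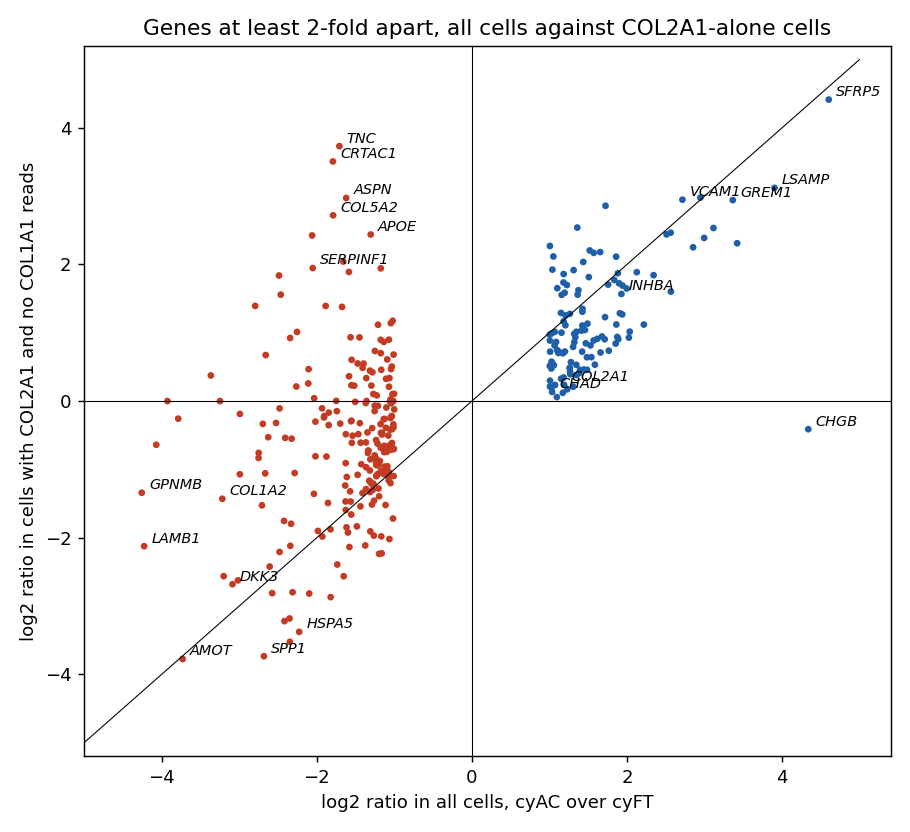
Log2 ratio, cyAC over cyFT, of the 353 genes at least 2-fold apart, over all cells (x axis) and over the cells with *COL2A1* and no *COL1A1* reads (y axis). The diagonal marks equal ratios, blue genes were higher in cyAC and red genes in cyFT over all cells, and the red genes above the horizontal line, with *TNC* and *CRTAC1* highest, had the opposite sign in this class, while *COL1A1* lies at 0 because cells with its reads were left out.

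Of 7 genes of hypertrophy and mineralization compared in the *COL2A1*-alone cells, 5 were at least 2-fold higher in cyFT and none in cyAC. The shares among all genes of this class were 6.29% and 5.21%. The median log2 ratio was -2.11 against 0.04 for all genes of this class. In the class, *IBSP* and *PHOSPHO1* reached 50 CPM in cyFT only. Over all cells 3 of 5 were at least 2-fold higher in cyFT, against 7.06% of all compared genes, with a median of -1.17. With TMM factors it was 2 of 5. *PTH1R*, the receptor of parathyroid hormone-related protein, was at 86 and 376 CPM in the class, and *MEF2C*, a transcription factor of chondrocyte hypertrophy, at 96 and 382 CPM. *IBSP*, the gene of bone sialoprotein, was at 32.8 CPM in those of cyAC and 2578 CPM in those of cyFT. It was found in 33 cyFT cells, all of them *COL2A1*-alone cells, and in 4 cyAC cells. Of the 33 cells, 31 also held *SPP1* (osteopontin), 21 *PHOSPHO1* and 15 *ALPL*, the latter both phosphatases of matrix mineralization, while in all cyFT cells together *SPP1* was found in 182, *PHOSPHO1* in 59 and *ALPL* in 17. *SPP1* was at 522 and 6962 CPM in the class, but 5 cells held 80.3% of its reads in cyFT, and over all cells its log2 ratio was -2.68 with and -1.71 without the 5 highest cells of each tissue. *COL10A1*, the collagen of hypertrophic chondrocytes, was at 10.1 and 45.8 CPM in the class and was found in 4.06% and 4.38% of all cells, too few to be compared. *BGLAP* (osteocalcin) was at 9.11 and 34.1 CPM in the class. At least 3 of the 7 measured osteoblast or osteocyte markers, *IBSP* and *ALPL* included, were found in 1 cyAC cell and 13 cyFT cells. The 7 summed to 93.4 and 1157 CPM, with 5 of them higher in cyFT and *IBSP* making up most of the cyFT sum. The part of such cells in these values was not tested.

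*HSPA5*, the chaperone BiP of the endoplasmic reticulum, was at 845 CPM in the *COL2A1*-alone cells of cyAC and 8799 CPM in those of cyFT, against 1682 and 1024 CPM in the *COL1A1*-alone cells. *AGT*, the gene of angiotensinogen, was at 12.1 and 193 CPM and was found in 5.43% and 64.3% of the class. *SLC8A3*, a sodium and calcium exchanger, was at 3.1 and 69 CPM, *RASD1*, a small GTPase induced by glucocorticoids, at 3.49 and 73.6 CPM, *SEMA3D*, a secreted semaphorin, at 3.68 and 52.9 CPM, *MOXD1* at 4.17 and 61.6 CPM and *GPRC5A* at 10.9 and 110.5 CPM.

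*PRG4* differed in opposite directions between classes of cells. Over all cells it was at 4986 CPM in cyAC and 6419 CPM in cyFT, within 2-fold, with reads in 97.2% and 87.2% of cells and cell medians of 399 and 133 CPM. In *COL2A1*-alone cells it was at 4515 and 446 CPM, 10.1-fold higher in cyAC. In cells with neither collagen it was at 12289 and 36189 CPM. Of the 33 such cells in cyFT, 15 were immune-marker cells with 139 CPM of *PRG4*, and the other 18 held 57.3% of all cyFT reads of *PRG4*. The same 18 cells, with 3.75% of all cyFT reads, held 84.5% of the cyFT reads of *CLIC5*, 27.1% of those of *HBEGF* and 14.4% of those of *CD55*, which with *PRG4* are markers of the synovial lining, and 27.2% of those of *CRTAC1*. The part of such cells in the difference between the tissues was not tested. The list as a whole lay on both sides, since *CLIC5* was at 2.54 CPM in cyAC and 110.1 CPM in cyFT, *CD55* at 643 and 929 CPM and *HBEGF* at 925 and 672 CPM. Other superficial zone genes were mixed, with *CLU* higher in cyAC, *SEMA7A* higher in cyFT (29.9 and 108 CPM) and *ABI3BP* level at 196 and 204 CPM.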

How the data were processed

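Single cells of cyAC and cyFT were profiled by TAS-Seq, in which captured transcripts are amplified after terminator-assisted tailing. The deposited values are counts, and the authors assigned reads to Ensembl cynomolgus transcripts with Bowtie2 2.4.2 after trimming with cutadapt 3.4, kept barcodes above the inflection of the knee plot in R 3.6.3, split tissues by hashtag, removed background counts of abundant genes by mixture models, filtered on mitochondrial share and drew 320 cells a sample. No counting of molecules was described, so the counts are taken as reads, and intervals cover counting error only. The tissue behind each hashtag prefix was read from the code supplied with the study, since the labels name both tissues for the pooled library. All deposited cells were used.

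The reads of each gene were summed over the cells of a tissue and scaled to CPM by the sum over 14020 genes. The pseudocount of 1 and the limit of 2-fold apply to every comparison. The filter (50 CPM and reads in 25% of cells in either tissue) was applied over all cells. It was applied again within the *COL2A1*-alone cells for the 3146 genes and the gene lists compared there. Genes followed into the *COL1A1*-alone cells, and the 122 and 231 genes followed into the *COL2A1*-alone cells, were not filtered again, so some had low levels there. With 1 sample per tissue no p-value was computed, and the TMM factors came from edgeR 4.0.16. The comparison was tested on simulated data first. Scrublet in scanpy 1.11.5 marked 2 cells in each tissue, which were kept. Thinning to 12191 reads left out 12 cyAC and 32 cyFT cells. Named genes were the collagen markers, the 15 largest ratios in each direction, the 10 largest in each direction within *COL2A1*-alone cells, and up to 6 members of each of 53 lists with the largest ratios plus its first member, of which 2 genes are not reported here. The comparison, its members and the lists were chosen with earlier results of these data known. Gene symbols are those of the file, of which 94.9% occur in the RefSeq annotation, and no genome was used here, so no positions or sequences are given.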

Additional observations from a re-analysis of the deposited data

How the results depend on the processing

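The counts of 122 and 231 genes stayed within 1.5 times under 14 of 16 alternatives. They were 56 and 79 with a minimum of 200 CPM and 48 and 65 when a cell needed 10 reads of a gene to hold it, both of which leave fewer genes to compare. With TMM factors they were 183 and 164, so the cyAC count lay at the limit of 1.5 times and the direction of the split turned. The comparison within *COL2A1*-alone cells was not among the 16. Of 115 genes past 2-fold chosen by the rule for named genes, none had the opposite sign with the mean of single-cell CPM in place of the sums. The same held under thinning, without marked doublets and without the 5 highest cells of each gene. For these genes, another pseudocount or another filter on genes could not have changed the sign. TMM factors, which moved ratios by up to 0.18, could not have changed it for them either. With TMM factors 13 of them were within 2-fold, all otherwise higher in cyFT (*COL12A1*, *HAPLN3*, *ID3*, *IGFBP5*, *KLF4*, *KLF6*, *MEF2C*, *NR1D1*, *PRRX2*, *SERPINA1*, *SLC38A2*, *SMAD4* and *TGFB3*).

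A pair of alternatives chosen after seeing the data left out the cells with immune markers, or all 13 cyAC and 33 cyFT cells with at least 3 markers of another type. They gave 125 and 222 genes, and 135 and 242 genes, and turned 1 named gene, *APOE*, to 1.20 and 1.13. Restricting the comparison to *COL2A1*-alone cells left 48 of the 115 within 2-fold and gave 28 the opposite sign. The filter was not applied again, and several of the 28 were far below 50 CPM in both tissues of this class. *IGSF10* was at 1.74 CPM in cyAC and 1.12 CPM in cyFT, *MAMDC2* at 3.97 and 0.893 CPM and *ITIH5* at 7.17 and 4.91 CPM. *MFAP5* was at 9.5 and 5.58 CPM and *COL4A2* at 12.7 and 10.7 CPM in the class, so the sign of such genes rests on few reads. On the log2 scale *CHGB* was at -0.41 there, and the genes otherwise higher in cyFT were *MMP14* 0.0031, *COL4A2* 0.23, *IGSF10* 0.38, *FOS* 0.42, *ITIH5* 0.47, *MMP2* 0.49, *CTSK* 0.55, *THBS2* 0.60, *PRRX2* 0.61, *MFAP5* 0.67, *TGFB3* 0.70, *LOXL1* 0.73, *ID3* 0.87, *ID1* 0.93, *TPPP3* 1.01, *COL12A1* 1.14, *IGFBP5* 1.18, *TGFBI* 1.38, *MAMDC2* 1.39, *VCAN* 1.84, *DPT* 1.89, *SERPINF1* 1.95, *APOE* 2.44, *COL5A2* 2.72, *ASPN* 2.97, *CRTAC1* 3.51 and *TNC* 3.73. No paired analysis was possible because each tissue was 1 sample. The 320 cells of a tissue limit shares, since a gene found in none allows, by a limit of 3 counts, up to 0.938% of cells with a read, and in the *COL1A1*-alone class cyAC had only 16 cells.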

Other observations

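The cells without either collagen held different genes in the 2 tissues. In the 24 such cyAC cells without immune markers, *CLU* was at 66525 CPM and these cells held 32.9% of all cyAC reads of *CLU*, whereas in the 18 such cyFT cells *CLU* was at 2177 CPM and *PRG4* at 98016 CPM. *CHGB* reached 15829 CPM in the 24 cyAC cells and 19.2 CPM in the 18 cyFT cells. *COL1A2* was found in 14 of the 24 and in 9 of the 18, so that some cells below the *COL1A1* limit still held the other chain of type I collagen. *CLIC5* was found in 7 of the 18 cyFT cells and in none of the 24 cyAC cells.

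The 3 cyAC cells with both collagens held 15895 CPM of *MMP3* and 4894 CPM of *VCAM1*, against 401 and 20.9 CPM in the 33 cyFT cells with both, but 3 cells are too few to describe a tissue. *S100B*, a Schwann cell marker on its list that chondrocytes also express, was at 495 CPM in cyAC and 164 CPM in cyFT. *DDX3Y*, a Y-linked gene, was found in 87.5% of cyAC cells and 69.7% of cyFT cells.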
